A study of Mus musculus with 4 samples.

Results

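Thymocytes that carried RNA for S1pr1, the receptor for sphingosine-1-phosphate (S1P) on mature T cells, were examined among CD4-positive thymocytes sorted for the chemokine receptor CCR7 with droplet-based sequencing of RNA from single cells. One group, called WT, came from Cd4Cre mice. The other, called Cgas KO, came from Cd4Cre Cgas fl/fl mice, so both groups carried the transgene that drives Cre from the double-positive stage of T cell development, and cGAS, the cytosolic DNA sensor, was targeted in T-lineage cells. Each genotype gave 1 expression library and 1 T cell receptor (TCR) library; neither the age of the mice nor their number per library is stated in the labels. The design text asks how cGAS affects transcription in these cells.

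The cells were selected on their own counts. A barcode was kept with at least 2000 unique molecular identifiers (UMIs, each 1 captured RNA molecule), at least 500 genes and at most 10% mitochondrial UMIs. It was a member, called S1pr1-positive here, with at least 2 S1pr1 UMIs, at least 1 Cd4 UMI and none for Cd8a, Cd8b1, Foxp3, Il2ra, Ikzf2 or Rag1. Of 12929 kept WT barcodes 1013 met the rule, and of 14381 kept Cgas KO barcodes 1109 did, giving 2122 of 27310 in all. The comparison group, called S1pr1-zero, met every other limit and had no S1pr1 UMI; it held 2817 WT and 3108 Cgas KO barcodes. Between them stood 704 WT and 732 Cgas KO barcodes with exactly 1 S1pr1 UMI, which entered neither group. S1pr1, Cd4 and the other 6 genes of the rule were therefore left out of every test.

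S1P is plentiful in blood and lymph and scarce in tissue. A newly made T cell matures for some days in the thymic medulla, and it leaves once it carries S1pr1 and can follow the S1P gradient. Klf2, a zinc-finger factor, drives S1pr1 and is itself under Foxo1, which in turn is held back by antigen receptor signalling. CD69, present on recently signalled thymocytes, binds the receptor and takes it off the surface.

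Median depth was close between the groups within a library. S1pr1-positive barcodes had medians of 5048 UMIs and 2124 genes in WT and 4737 UMIs and 2053 genes in Cgas KO. S1pr1-zero barcodes had 5101 UMIs and 2213 genes in WT and 4651.5 UMIs and 2069.5 genes in Cgas KO. Some cell cycle values still moved when S1pr1-zero barcodes were matched on UMI total, as given below. Summed, the 4 groups held between 6080897 and 16214063 UMIs. Levels are in CPM, the UMIs of a gene per 1000000 UMIs of the summed group. Intervals of levels, shares and ratios are exact 95% intervals and cover counting error only. An S1pr1 UMI could also be found where the gene should be silent: after each barcode was thinned to 2000 UMIs, it was present in 6.65% (WT) and 7.14% (Cgas KO) of barcodes with double-positive features (at least 2 Rag1, 1 Cd4 and 1 Cd8a UMIs; median 3398.5 and 3530.5 UMIs before thinning). Among barcodes within the limits other than S1pr1 it was present in 23.5% and 23.8%. Unthinned, the shares were 15.8% and 11.9% against 37.9% and 37.2%. Of the members themselves 74.9% and 76.3% still had an S1pr1 UMI after thinning, so some S1pr1-zero barcodes can be cells whose S1pr1 RNA was not captured.

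The Cgas KO library differed from the WT library in its repeated receptors. In it, 623 pairs of alpha and beta CDR3 nucleotide sequences were each carried by 2 kept barcodes, which made 1246 of 12029 paired barcodes (10.4%, interval 9.82 to 10.9%). In WT this held for 43 of 10754 (0.400%, 0.290 to 0.538%). The repeated barcodes of Cgas KO were shallower, with a median of 3203 against 4707 UMIs. Among Cgas KO members 57 of 952 paired barcodes were involved (5.99%) and among S1pr1-zero barcodes 318 of 2729 (11.7%); in WT 7 of 875 and 10 of 2539 were. Values without these barcodes are given beside the counts they bear on. No pair occurred in both TCR libraries. Of the barcode sequences of kept barcodes, 276 were present in both expression libraries, and 0 of these were members in both.

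Promoter sequence is shown for 4 genes on which the results turn, as the 250 bases before the annotated start, from the RefSeq table of GRCm38.p6. Klf2, a marker of the population, is shown because this window holds a match to the MEF2 consensus, the site through which the kinase ERK5 (gene Mapk7) is known to drive Klf2. It lies at chr8:72318812-72319061, plus strand, and the capitals mark the match, which begins 118 bases before the start:
Klf2: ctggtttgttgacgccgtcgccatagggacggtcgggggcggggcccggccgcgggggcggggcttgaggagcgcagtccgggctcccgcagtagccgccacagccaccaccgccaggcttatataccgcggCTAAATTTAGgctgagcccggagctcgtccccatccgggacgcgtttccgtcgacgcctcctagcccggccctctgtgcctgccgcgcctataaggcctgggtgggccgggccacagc
Of 27025 genes with a promoter in the table, 160 (0.592%) held such a match on either strand, and among the 17 Klf and Foxo list genes with a promoter, 1 did. The interferon-induced genes Ifit3 (chr19:34583279-34583528, plus strand), Ifit1 (chr19:34640639-34640888, plus strand) and Oas1a (chr5:120907526-120907775, minus strand) are shown for the interferon-stimulated response element searched on both strands as GAAA, any 2 bases and GAAA, with overlaps counted. Capitals mark the matches, of which each window holds 2, overlapping in Oas1a:
Ifit3: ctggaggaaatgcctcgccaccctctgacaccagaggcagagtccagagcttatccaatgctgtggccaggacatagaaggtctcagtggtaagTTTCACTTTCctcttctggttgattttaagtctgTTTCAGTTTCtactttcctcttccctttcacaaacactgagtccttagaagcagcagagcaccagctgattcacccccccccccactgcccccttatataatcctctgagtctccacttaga
Ifit1: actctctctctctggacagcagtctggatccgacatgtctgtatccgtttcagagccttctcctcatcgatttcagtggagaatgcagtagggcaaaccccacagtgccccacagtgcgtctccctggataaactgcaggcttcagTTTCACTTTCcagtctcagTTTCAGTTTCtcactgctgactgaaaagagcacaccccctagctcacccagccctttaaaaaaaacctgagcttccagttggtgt
Oas1a: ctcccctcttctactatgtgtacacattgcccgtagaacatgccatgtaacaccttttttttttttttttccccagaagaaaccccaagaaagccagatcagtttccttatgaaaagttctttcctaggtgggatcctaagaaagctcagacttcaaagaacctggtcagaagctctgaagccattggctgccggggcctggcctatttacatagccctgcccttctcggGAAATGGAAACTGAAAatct
This motif was present in 13 of the 31 interferon-stimulated list genes with a promoter (41.9%) and in 936 of all 27025 (3.46%). The core CACCC of the KLF motif was present in 58.8% of the promoters of the Klf and Foxo list. It was present in 54.5% of all promoters and in 60.4% of those of the genes tested below. A match is a stretch of letters, not a bound site.

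The first comparison set S1pr1-positive against S1pr1-zero barcodes in both genotypes together. The S1pr1-positive cells had a mature profile: Klf2, Foxo1, the second lymphocyte S1P receptor gene S1pr4 and MHC class I genes were higher, and genes of the preceding semi-mature stage such as Itm2a, Ccr9 and Ccr4 were lower. Counts were tested with edgeR's quasi-likelihood test with the library as a block and Benjamini-Hochberg adjustment over 12702 genes. Of these, 2369 were higher (18.7%) and 2023 lower (15.9%) at an adjusted p under 0.05. These shares of all tested genes, not matched on abundance, are the background for the count of each gene list. With a fold of at least 1.5 in addition, 737 were higher (5.8%) and 582 lower (4.58%), and 735 and 582 of these had the same direction in both libraries. Of the genes called at any fold, 110 had opposite directions in the libraries by CPM with 1 CPM added. Id3, Rap1b, Stag1, Stag2 and Pds5a, all called higher, are among them. The median over all tested genes was -0.0014 on the log2 scale. The log2 folds use UMI totals scaled by edgeR's TMM factors, whereas the CPM printed beside them are unscaled. These factors were 0.965 (WT) and 0.976 (Cgas KO) for the S1pr1-positive sums and 1.03 for both S1pr1-zero sums. The log2 folds therefore lie somewhat above what the CPM alone give, which matters most for small folds. Without the repeated-receptor barcodes the counts were 2343 and 2006. The test has 2 libraries and 1 residual degree of freedom, and the number of animals is unknown, so its errors reflect little beyond counting; DESeq2's Wald test called 869 higher and 422 lower.

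Klf2 stood at 1478 (WT) and 1740.03 CPM (Cgas KO) in the S1pr1-positive sums, against 777 and 809 CPM in the S1pr1-zero sums. Both S1pr1-positive sums lay above both others, a log2 fold of 1.10 ± 0.024 (SE). Counted per barcode after thinning, 85.3% (WT) and 88.5% (Cgas KO) of S1pr1-positive barcodes had a Klf2 UMI, and 54.2% and 56.4% of S1pr1-zero barcodes did. Klf2 is the marker of the population that the rule did not use, and its level went with the label of mature cells. Foxo1, which drives Klf2, stood at 306 and 329.8 CPM against 162 and 172 CPM (log2 fold 1.01 ± 0.037). Klf3, a repressor of the same family, stood at 124 and 151 CPM against 46.0 and 48.9 CPM (1.62 ± 0.054). Over the list of Klf and Foxo regulators, 10 of 20 tested genes were higher and 4 lower, 6 and 2 of them by at least 1.5-fold. Klf6, Klf13, Foxp1 and Pik3ip1, an inhibitor of PI3 kinase, were among the higher ones. Mapk7, the ERK5 gene, was lower, at 16.3 and 17.8 CPM against 32.3 and 28.1 CPM (edgeR, -0.73 ± 0.11, adjusted p = 1.44e-10). Mef2a was slightly lower (-0.14 ± 0.051, adjusted p = 0.0264 by edgeR), and Map2k5 and Mef2d were not called.

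Of the genes for S1P receptors and S1P metabolism, 11 of 19 listed were abundant enough to be tested, and 3 were higher and 1 lower. S1pr4 stood at 118 CPM in both S1pr1-positive sums and at 33.7 and 32.8 CPM in the S1pr1-zero sums. This is a log2 fold of 1.91 ± 0.060, and S1pr4 was the only one of the higher genes past 1.5-fold. S1pr2, which couples to signals that restrain movement, was lower, at 3.12 and 2.57 CPM against 7.28 and 6.55 CPM (-1.19 ± 0.25). Sgpp1, an S1P phosphatase gene, was higher by 0.31 ± 0.067, and the S1P lyase gene Sgpl1 was not called. Of the proteins that switch S1P receptors off or relay their signal, 11 of 19 genes were higher and 2 lower. Stat3 (153 and 152 CPM against 93.1 and 93.8 CPM) and the G protein brake Rgs1 (61.8 and 51.8 CPM against 35.2 and 32.2 CPM) passed 1.5-fold. The receptor kinase genes Grk2 (0.42 ± 0.056) and Grk6 (0.48 ± 0.045), the endocytosis gene Dnm2 (0.34 ± 0.039) and the G protein gene Gnai2 (0.20 ± 0.027) were higher by less, and Rgs2 was lower (-0.53 ± 0.046).

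Cd69 RNA was not lower in the S1pr1-positive cells. It stood at 208 and 204 CPM against 200.4 and 183 CPM, a small difference upwards (0.19 ± 0.039, edgeR adjusted p = 1.34e-05). The edgeR fold was 1.14, and the unscaled CPM ratios were 1.04 (WT) and 1.11 (Cgas KO). After thinning, a Cd69 UMI was present in 30.6% (WT) and 28.3% (Cgas KO) of S1pr1-positive barcodes, against 27.9% and 25.6% of S1pr1-zero barcodes, and within each library these intervals overlapped. Split further by Klf2, the shares also carry the Klf2 difference given above. Whether Cd69 and Klf2 go together within a group was not tested. Barcodes with Cd69 but no Klf2 were 5.23% and 2.89% of the S1pr1-positive groups and 13.7% and 11.004% of the S1pr1-zero groups. Barcodes with Klf2 but no Cd69 were 59.9% and 63.0% against 40.04% and 41.8%, and barcodes with both were 25.4% and 25.4% against 14.2% and 14.6%.

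**Figure D1:**
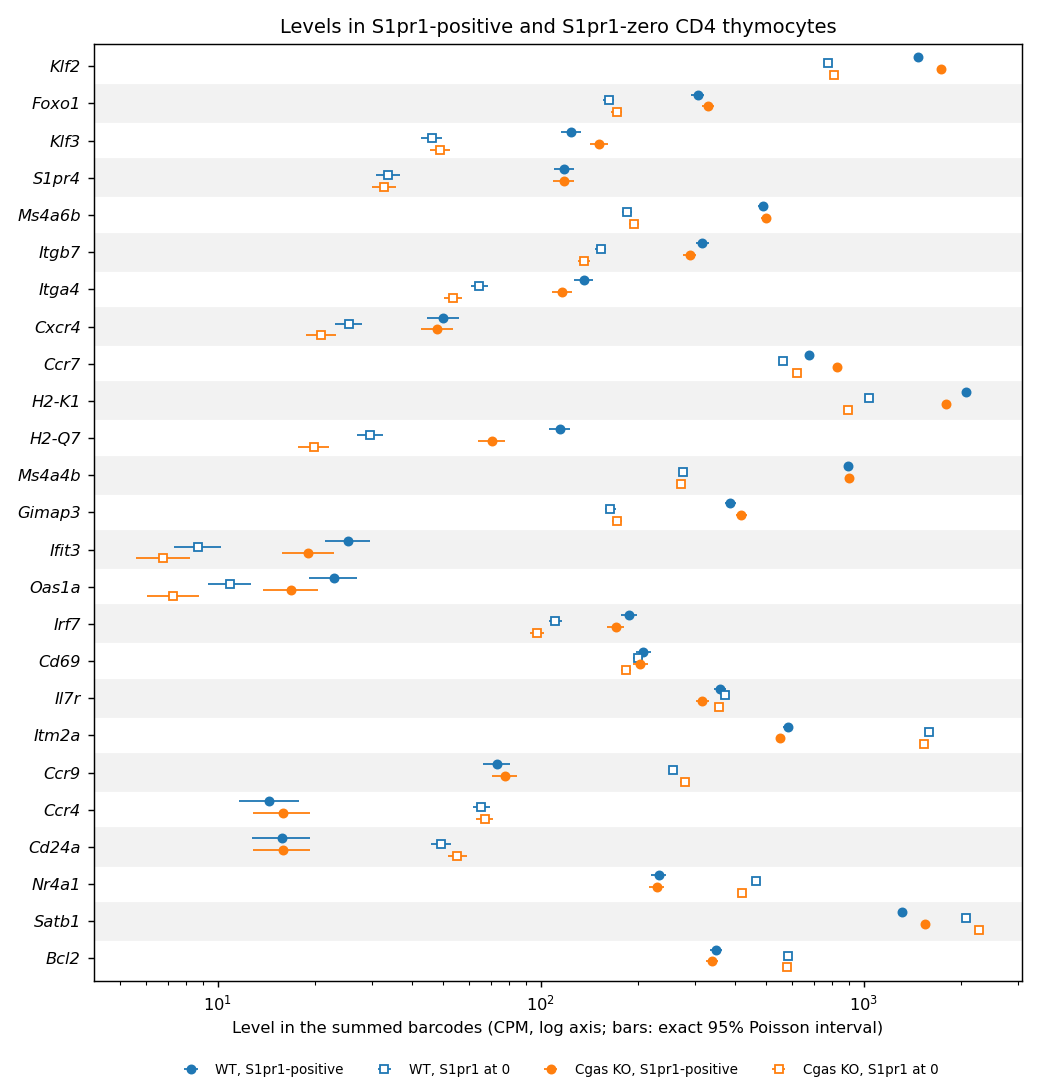
Levels of 25 genes in the 4 summed groups, in CPM on a log axis, filled circles for S1pr1-positive and open squares for S1pr1-zero barcodes, blue for WT and orange for Cgas KO, with exact 95% Poisson intervals. Klf2 lies at 1478 and 1740.03 CPM against 777 and 809 CPM, whereas Itm2a lies on the other side, at 584 and 552 CPM against 1594 and 1535 CPM.

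Genes of late maturation were mostly higher. Of 30 tested genes of this list, 25 were higher and 2 lower, 17 and 0 of them by at least 1.5-fold, with a median log2 fold of 0.73. The MHC class I heavy chain gene H2-K1 stood at 2075 and 1802 CPM against 1041 and 895 CPM (log2 fold 1.09 ± 0.024). H2-D1 (0.77 ± 0.024), the light chain gene B2m (0.58 ± 0.023) and the non-classical H2-Q7 (1.99 ± 0.070) were higher too; class I genes are close copies of each other, so reads may be shared between them. Ms4a4b, a membrane protein gene of mature T cells, stood at 896 and 898 CPM against 276 and 272 CPM. Cd55, which protects cells from complement, was low but stood at 10.7 and 12.7 CPM against 1.67 and 2.24 CPM (2.66 ± 0.22). Il6ra and Slfn1, a gene of the Schlafen family tied to T cell quiescence, were 2.14- and 2.34-fold higher. Il7r, the survival cytokine receptor gene often used as a maturity marker, was not called, at 359 and 317 CPM against 372 and 356 CPM (-0.02 ± 0.033). Cd5 and Cd2 were the 2 lower genes, both by 0.16 on the log2 scale (-0.16 each).

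The semi-mature list ran the other way. Of 30 tested genes 4 were higher and 23 lower, 0 and 15 of them by at least 1.5-fold, with a median log2 fold of -0.59. Itm2a, a membrane protein gene switched on at positive selection, stood at 584 and 552 CPM against 1594 and 1535 CPM. Ccr9, the receptor for the thymic chemokine CCL25, stood at 73.0 and 77.5 CPM against 257 and 279 CPM (-1.75 ± 0.047). Ccr4, a receptor that draws newly selected cells to the medulla, stood at 14.5 and 15.9 CPM against 65.4 and 67.1 CPM (-2.04 ± 0.092). Cd24a, lost as thymocytes mature, stood at 15.8 and 15.9 CPM against 49.1 and 55.2 CPM. In all of these the S1pr1-positive and S1pr1-zero sums were well apart. The receptor-induced genes Nr4a1 (-0.86 ± 0.035), Nr4a3 (-0.89 ± 0.080) and Egr2 (-0.81), and the chromatin organiser gene Satb1 (-0.52 ± 0.023), were lower. The higher ones were Ikzf3, Rgcc, Cd200 and Id3. Id3, an inhibitor of E proteins, was only slightly higher (0.14 ± 0.040). By CPM, with 1 CPM added, the Id3 ratio of S1pr1-positive over S1pr1-zero was 0.997 in WT and 1.08 in Cgas KO.

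**Figure D2:**
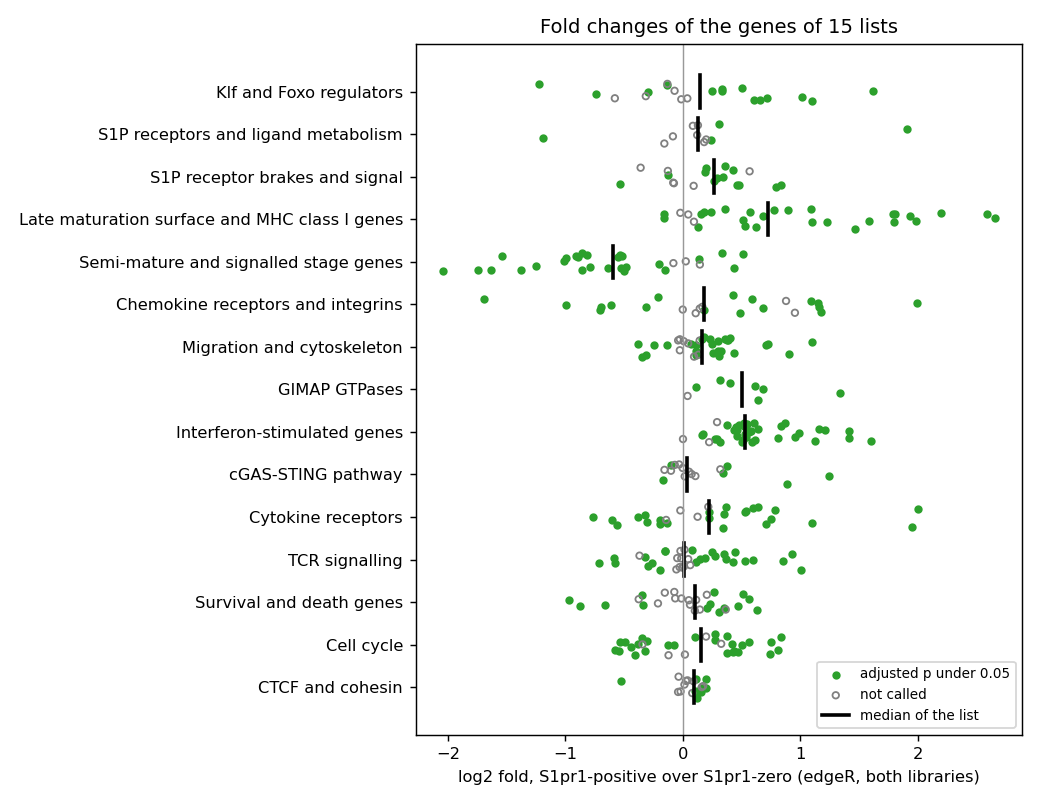
Log2 fold of every tested gene in 15 lists, S1pr1-positive over S1pr1-zero, from edgeR over both libraries; filled points passed an adjusted p under 0.05, open points did not, and black bars are list medians. The late maturation list (median 0.73) and the interferon-stimulated list (0.53) lie to the right of 0 and the semi-mature list (-0.59) to the left.

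The receptors that guide cells out of the medulla and into lymph nodes shifted in both directions. Of 23 tested chemokine receptor and adhesion genes 10 were higher and 7 lower, 7 and 5 of them by at least 1.5-fold. Itgb7, an integrin chain for homing to the gut, stood at 317 and 289 CPM against 154 and 136 CPM (1.15 ± 0.038). Its partner Itga4 stood at 136 and 116 CPM against 64.6 and 53.6 CPM (1.18 ± 0.053). Itga6, Jaml, Selplg, the P-selectin ligand gene, and Cxcr4 were higher as well, Cxcr4 at 49.99 and 47.8 CPM against 25.5 and 20.9 CPM. Ccr7, whose protein was used to sort the cells, stood at 678 and 827 CPM against 565 and 623 CPM (0.42 ± 0.027). Plxnd1, a semaphorin receptor gene of thymocyte migration, was lower at 9.87 and 10.1 CPM against 23.4 and 18.95 CPM, and so were Ccr8, Robo1, Itgb1, Itgb2, Itgal and Icam1. Of 35 migration and cytoskeleton genes 22 were higher and 5 lower, mostly by little. Crip1 (1.10 ± 0.035), Rasgrp2 (0.91 ± 0.037), which activates the integrin switch Rap1, Arhgap15 (0.72 ± 0.025) and the Rap1 effector gene Apbb1ip (0.71 ± 0.036) passed 1.5-fold upwards. The actin genes Actb and Actg1, and Pfn1, Cfl1 and Rap1a, were lower.

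GTPases of the GIMAP family, which support survival of mature T cells, were higher in 7 of 8 cases and lower in 0, 4 of them by at least 1.5-fold. Gimap3 stood at 387 and 417 CPM against 164 and 172 CPM (1.34 ± 0.035), and Gimap9 was the one not called (0.04 ± 0.040). Survival genes were mixed, with 9 higher and 5 lower of 27. Bcl2, the main anti-death gene of mature T cells, was lower, at 349.6 and 340.3 CPM against 582 and 579 CPM (-0.66 ± 0.031), as was Bcl2l1 (-0.97 ± 0.099). Txnip, a brake on glucose uptake, was higher (0.64 ± 0.034). Of 28 cytokine receptor and feedback genes 15 were higher and 9 lower, 8 and 2 of them by at least 1.5-fold. Ifngr1 (124 and 135 CPM against 65.6 and 63.0 CPM), Tgfbr2 (383 and 363 CPM against 248 and 236 CPM), Il18r1 (1.95 ± 0.20) and the feedback gene Socs3 (13.6 and 12.5 CPM against 4.01 and 2.93 CPM) were higher. Socs1 was lower (-0.76 ± 0.048).

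Interferon-stimulated genes were higher as a group. Of 40 tested genes 37 were higher and 0 lower, 15 of them by at least 1.5-fold, with a median log2 fold of 0.53; DESeq2 called 25 higher and 0 lower. Ifit3, whose promoter is shown above, stood at 25.3 and 19.1 CPM against 8.70 and 6.80 CPM (1.60 ± 0.14). Oas1a, which senses double-stranded RNA, stood at 22.9 and 16.8 CPM against 10.9 and 7.29 CPM (1.21 ± 0.14), and Ifit1 at 75.6 and 61.6 CPM against 44.7 and 38.3 CPM (0.81 ± 0.068). Irf7, the amplifier of the interferon response, stood at 188 and 171 CPM against 111 and 97.7 CPM. Phf11b (1.41 ± 0.082) and Ifi27l2a (1.16 ± 0.025) were higher, and Isg15, one of the most induced genes in many cells, was higher by only 0.17 ± 0.037. Rsad2, Trim30d and Gbp2 were not called. Of 16 genes of the cGAS-STING pathway 4 were higher, 2 lower and 10 not called, against 18.7% and 15.9% of all tested genes, and DESeq2 called 1 higher and 0 lower. The called genes were the adaptor gene Sting1 (0.34 ± 0.058), Ikbke, Enpp1 and Ifi204 on one side and Samhd1 and Banf1 on the other. Ifi204 stood at 5.92 against 2.65 CPM in WT and rested on few UMIs in Cgas KO, at 0.160 against 0.0623 CPM.

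Signalling genes were called in both directions or not at all. Of 35 TCR signalling genes 15 were higher, 9 lower and 11 not called. The ubiquitin ligase gene Cblb (226 and 215 CPM against 119 and 114 CPM, 1.01 ± 0.042) and the phosphatase gene Ptpn22 (0.93 ± 0.052), both restraints on the receptor, were higher, and Dusp5, Dusp6, Lat and Lcp2 were lower. Of 25 NF-kappaB genes 7 were higher, 3 lower and 15 not called, against 18.7% and 15.9% of all tested genes, with Bcl3 the furthest (1.14), and of 18 sialylation genes 8 were higher and 4 lower. St8sia6, a sialyltransferase gene, stood at 73.3 and 52.0 CPM against 16.3 and 13.3 CPM (2.17 ± 0.087). Of 21 heat-shock and immediate early genes 5 were higher and 9 lower. Of 18 CTCF and cohesin genes 7 were higher and 1, Satb1, lower; the 7 were higher by at most 0.20 on the log2 scale, DESeq2 called 0 of them, and Ctcf was not called (0.01 ± 0.043). Of 21 genes of memory and recirculating T cells 11 were higher and 3 lower, 7 and 3 of them by at least 1.5-fold. DESeq2 called 4 higher and 2 lower, and thinning to 2000 UMIs left 6 higher and 3 lower of 16. S100a4 and S100a6, calcium-binding protein genes of memory cells, had the largest folds of the list but few UMIs: 22 and 8 UMIs for S100a4 and 14 and 73 UMIs for S100a6 in the S1pr1-positive sums, against 5 and 1 and 19 and 12 UMIs. Lgals1 stood at 299 and 336 CPM against 163 and 172 CPM, while Id2 was lower, and 3 and 1 of the 27 listed genes were at 0 UMIs in the WT and Cgas KO S1pr1-positive sums. The part of recirculating cells in these values was not tested.

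Cell cycle genes moved in both directions. Of 32 tested genes 15 were higher and 12 lower. The higher ones included the ubiquitin-conjugating enzyme gene Ube2c (134 and 138 CPM against 80.1 and 80.9 CPM, 0.84 ± 0.049), the centromere histone gene Cenpa (0.81 ± 0.059) and Mki67 (0.57 ± 0.055). The replication helicase genes Mcm2 (-0.57 ± 0.072) and Mcm5 (-0.55 ± 0.070), and Mcm3, Mcm6, Mcm7, Tyms, Stmn1 and Cks1b, were lower. The mitotic kinesin gene Cenpe was not called. Against S1pr1-zero barcodes matched on UMI total, Ube2c stood at 0.40 and Mki67 at 0.18, Cdk1 and Birc5 were no longer called, and Top2a turned from 0.27 to -0.13 and Cks2 from 0.28 to -0.047. Mcm2 and Mcm5 kept their direction there, at -0.68 and -0.73. The list counted 9 higher and 14 lower genes in that comparison, and 10 higher and 7 lower when every barcode was thinned to 2000 UMIs, where Ube2c stood at 0.80 and Mki67 at 0.52. The cause of the difference was not tested.

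Among genes with a proper symbol, at least 200 UMIs and 20 CPM in 1 sum, the 10 highest folds included Dapl1, Rflnb, Pdlim4, St8sia6, Tmem71, Arsb, H2-Q7, Ms4a6c and Emc9. Dapl1 was first, 5.43-fold higher (4.36 to 6.76), at 30.3 (WT) and 11.7 CPM (Cgas KO) against 6.11 and 2.12 CPM. Rflnb, which binds filamin in the actin cortex, stood at 74.2 and 70.1 CPM against 16.1 and 13.2 CPM. The LIM domain gene Pdlim4 stood at 19.2 and 27.4 CPM against 4.38 and 6.42 CPM. The 10 lowest were Akr1c18, Nrgn, Asb2, Myo6, Ccr4, F13a1, Chl1, Ctla2a, Ccr9 and Nedd4. Akr1c18, a progesterone-reducing enzyme gene, was first, at 3.12 and 2.25 CPM against 17.1 and 21.9 CPM. Nrgn, a calmodulin-binding protein gene, stood at 8.22 and 9.30 CPM against 52.1 and 37.5 CPM, and the motor gene Myo6 at 6.25 and 11.9 CPM against 38.5 and 41.2 CPM. All 20 were called in the same direction under each alternative run for this comparison, DESeq2 included. They were picked as the largest called folds from the same counts, so this is no independent check.

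Cd3e, a chain of the T cell receptor complex, stood at 1041 and 1044 CPM in the S1pr1-positive sums. Lists of other cells went different ways. Of the 17 dendritic and myeloid markers 8 in WT and 10 in Cgas KO were at 0 UMIs there, and H2-Aa, H2-Ab1 and H2-Eb1 stood at 0.963 CPM or less. Bst2 (190.4 and 185 CPM) and Cst3 (73.0 and 69.3 CPM) made up most of that list's summed level of 268 and 258 CPM, against 255 and 238 CPM in the S1pr1-zero sums. Gene by gene, the list mostly went down: of 7 tested genes 1, Bst2, was higher and 6 lower, 5 of them by at least 1.5-fold. DESeq2 called 1 higher and 0 lower. Of 19 innate-like T and NK markers 7 were at 0 in each S1pr1-positive sum, and the list summed to 9.37 and 17.3 CPM, against 10.1 and 10.04 CPM in the S1pr1-zero sums. Zbtb16, the factor of innate-like T cells, had 0 UMIs in WT and 34 UMIs in Cgas KO members. Of 9 B cell markers 4 and 5 were at 0, but Ighm (60.7 and 90.2 CPM against 38.6 and 50.9 CPM) and Cd79a (24 and 12 UMIs against 22 and 18 UMIs) were higher and Cd74 was lower. The part of such cells or droplets in the other results was not tested, beyond the values without barcodes of 2 or more beta chains. The 13 epithelial and stromal markers summed to 149.98 and 159.8 CPM against 115.3 and 121.7 CPM, of which Pecam1 made up 145.4 and 154 CPM; 6 and 9 of them were at 0. The CD8 lineage list without the rule genes summed to 198 and 189 CPM against 141 and 140 CPM, with 3 of 6 tested genes higher (Cd7, Runx3 and Klrd1) and 1 lower. For this list DESeq2 called 1 higher and 0 lower. Cd7, an early T cell surface gene, stood at 135 and 124 CPM against 80.1 and 76.9 CPM, and Klrd1 had 9 and 12 UMIs. Of 10 tested double-positive genes 3 were higher and 4 lower, with Dntt at 8.72 and 7.86 CPM against 16.9 and 17.8 CPM. Treg genes outside the rule went both ways, 4 higher and 6 lower of 10: Ctla4 was higher (51.3 and 55.03 CPM against 24.5 and 30.7 CPM), and the folate receptor gene Izumo1r was lower (195 and 141 CPM against 312 and 252 CPM). DESeq2 called 2 of the Treg genes higher and 4 lower.

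The members were not uniform in S1pr1. In WT 425 barcodes had 2 UMIs, 276 had 3, 140 had 4 and 172 had 5 or more, and in Cgas KO 421, 323, 167 and 198 did. The other genes stepped mainly between 0 and 1 S1pr1 UMI. With every barcode thinned to 2000 UMIs, Klf2 in WT stood at 799 CPM with no S1pr1 UMI, 1430.4 CPM with 1, 1498 CPM with 2, 1547 CPM with 3 and 1819 CPM with 4 or more. In Cgas KO the same classes stood at 832, 1504, 1673, 1833 and 1953 CPM. Klf2 was thus higher in each successive class of both libraries. Ms4a4b went from 303 to 804 CPM at 1 UMI in WT and lay between 855 and 973 CPM above that. Itm2a went from 1516 to 568 CPM at 1 UMI in WT and from 1482 to 606 CPM in Cgas KO, and lay between 384 and 560.3 CPM above that. Barcodes with 1 S1pr1 UMI, just outside the rule, were thus nearer to those with 2, just inside it, than to those with none. These are descriptions of classes cut from the selecting gene, with no test.

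**Figure D3:**
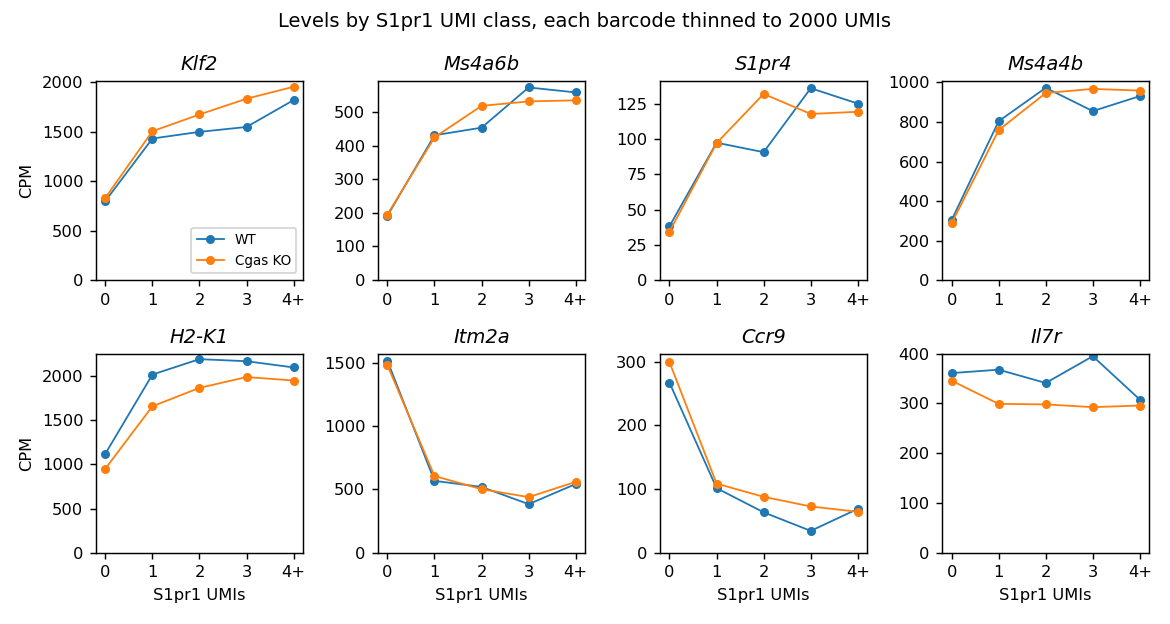
CPM of 8 genes by the number of S1pr1 UMIs of a barcode (0, 1, 2, 3, and 4 or more), each barcode thinned to 2000 UMIs, blue for WT and orange for Cgas KO. Klf2 goes from 799 and 832 CPM in the 0 class to 1819 and 1953 CPM in the highest class, while most of the difference in Itm2a lies between 0 and 1 UMI.

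The second comparison was between genotypes. S1pr1-positive cells made up 7.84% of kept WT barcodes (7.38 to 8.31%) and 7.71% of kept Cgas KO barcodes, a ratio of 0.984 (0.903 to 1.07). The minimum of 2 S1pr1 UMIs was applied at unlike depth, since kept barcodes had a median of 4943 UMIs in WT and 4507 UMIs in Cgas KO. Without the repeated-receptor barcodes the shares were 7.81% and 8.01% and the ratio 1.03 (0.940 to 1.12). When barcodes were thinned to 2000 UMIs before the rule was applied, the shares were 1.99% and 2.51% and the ratio 1.26 (1.07 to 1.49). A share of sorted cells that meet the rule does not tell more cells from more S1pr1 RNA per cell. With 1 library per genotype no difference here has a replicate check and none was tested.

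Cgas RNA was sparse, at 5.59 (34 UMIs, WT) and 3.85 CPM (24 UMIs, Cgas KO) in S1pr1-positive cells, a ratio of 0.689 (0.391 to 1.196). In S1pr1-zero cells it stood at 5.12 and 2.93 CPM, a ratio of 0.572 (0.391 to 0.828). The labels do not say which part of the gene is floxed, and a tag from outside that part would remain, so this value checks neither the deletion nor the label. The sums held 6640 genes with 100 or more UMIs over both genotypes and 20 CPM in 1 of them. In Cgas KO, 31 of these stood 1.5-fold or more above WT (0.467%) and 28 stood as far below it (0.422%), with 1 CPM added to each level. They include TCR segments and gene models without a proper symbol, which are counted but not named. Without the repeated-receptor barcodes 29 and 29 were. Of these 59 genes, 26 were also 1.5-fold apart in the same direction in S1pr1-zero barcodes. At the S1pr1 minimum of 3, with fewer barcodes, 54 and 53 genes were apart.

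The highest ratio belonged to Ifi213, an interferon-inducible gene of the Ifi200 DNA-sensor family, at 2.14 CPM (13 UMIs, WT) and 165 CPM (1031 UMIs, Cgas KO). Its relative Ifi206 stood at 9.54 and 119.7 CPM, Ifi208 at 97.2 and 168 CPM, and the SLAM family receptor gene Slamf6 at 27.6 and 83.1 CPM. The same genes were apart in S1pr1-zero barcodes, Slamf6 at 12.8 and 43.1 CPM. Rnf144a, H4c16, Btaf1, Lpin1, Etaa1 and Tubb2a completed the 10 highest. Aim2, another DNA sensor gene, lay on the other side, at 48.0 (WT) and 10.1 CPM (Cgas KO). Slc15a2, a peptide transporter gene, stood at 23.8 and 2.89 CPM, and Ly6k, Dapl1, Apol9b, Ctla2a, Dynlt1b, Klhdc2, Gbp10 and Id2 were the other lowest. Dapl1, the gene with the largest fold between states, was thus lower in Cgas KO in both states, at 30.3 and 11.7 CPM in S1pr1-positive and at 6.11 and 2.12 CPM in S1pr1-zero barcodes. Id2 stood at 109.5 and 58.2 CPM, and its relative Id3 at 168 and 223 CPM.

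In the RefSeq order of coding genes (GRCm38.p6), 46 of the 59 could be placed. Aim2, Ifi206, Ifi214, Ifi213, Ifi209 and Ifi208 are 6 consecutive coding genes on chromosome 1, of which 4 were higher and 2 lower in Cgas KO. The Ifi genes among them are near copies of each other and may share reads. Of all 6377 placed genes 0.721% were apart. The share was 3.49% on chromosome 12 (8 of 229), 2.67% on chromosome 13 (7 of 262) and 2.43% on chromosome 1 (9 of 370). Id2 and Rnf144a are neighbours on chromosome 12 and differed in opposite directions.

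**Figure D4:**
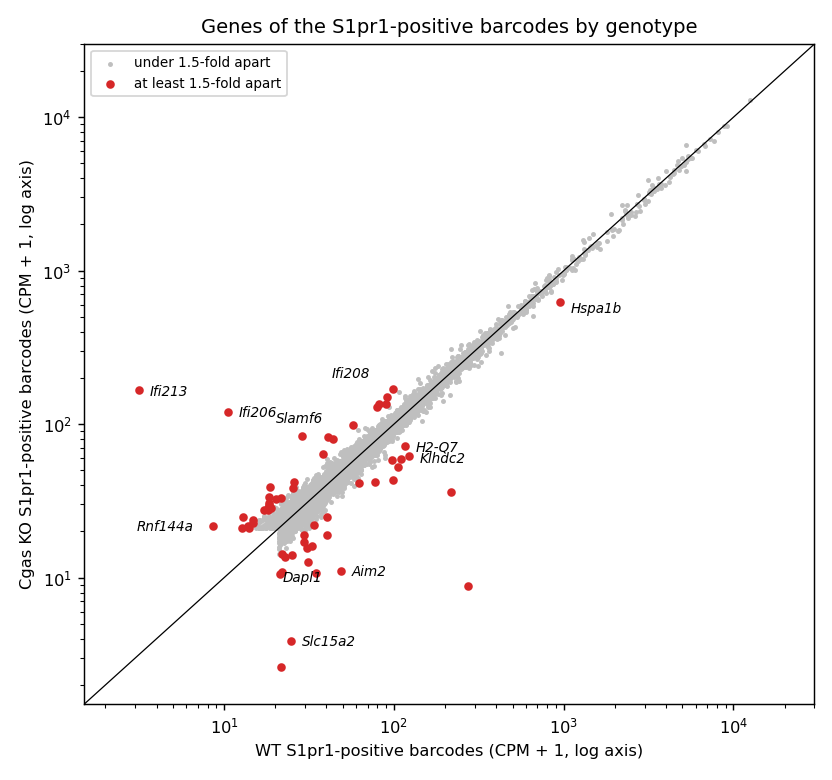
Levels of 6640 genes in S1pr1-positive barcodes of WT (x axis) and Cgas KO (y axis), in CPM plus 1 on log axes, with the line of equal levels; red points are at least 1.5-fold apart, and those without a name include TCR segments and gene models. Ifi213 and Ifi206 lie far above the line, at 165 and 119.7 CPM in Cgas KO, and Slc15a2 and Aim2 far below it.

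Most genes of egress and maturation were within 1.5-fold between genotypes, but so were nearly all genes. Of the 6640 genes with at least 100 UMIs and 20 CPM, 0.467% were past it upwards and 0.422% downwards. The lists take genes of at least 20 UMIs, for which no 1.5-fold share was computed. Their counts are therefore no result particular to these lists. Of 19 Klf and Foxo genes 0 were past 1.5-fold. Of 11 S1P receptor and metabolism genes 1, the ceramidase gene Asah1 (48 and 77 UMIs), was higher. Of 19 brake and signal genes 1, Rgs16 (34 and 10 UMIs), was lower in Cgas KO. A ratio of 1.2 was passed by 11.9% of all 11389 genes with at least 20 UMIs upwards and by 10.6% downwards, which is the background for the list counts here, again not matched on abundance. Klf2 stood at a ratio of 1.18 (1.14 to 1.21), Klf3 at 1.22 (1.11 to 1.35) and Foxo1 at 1.08 (1.01 to 1.15) in S1pr1-positive cells; in S1pr1-zero cells Klf2 stood at 1.04. S1pr4 stood at 0.999 (0.900 to 1.11). Of the 30 late maturation genes 0 were at least 1.2-fold higher and 6 lower in Cgas KO, and 3 of these were at least 1.5-fold lower. The 3 were Ly6c2 and H2-Q6, with at most 33 UMIs in a library, and H2-Q7, at 114.6 and 70.6 CPM (ratio 0.616, 0.545 to 0.695). Of the 30 semi-mature genes 4 were higher and 2 lower. Of 40 interferon-stimulated genes 1, Rsad2 (38 and 63 UMIs), was higher and 8 lower, with a median log2 ratio of -0.13. Ifit3 stood at 25.3 and 19.1 CPM (0.754, 0.588 to 0.964) and Oas1a at 22.9 and 16.8 CPM (0.737, 0.566 to 0.956). In S1pr1-zero cells the same ratios were 0.781 and 0.668. Of 16 cGAS-STING genes 1 was higher and 4 lower, and 1 of the list, Ifi204, was at least 1.5-fold lower. By the levels given above, Ifi204 was lower in Cgas KO in S1pr1-zero barcodes too. With 81 UMIs over the 4 sums, Ifi204 fell short of the 100 UMIs needed for the placing by chromosome. Whether its difference belongs with those of the Ifi genes on chromosome 1 or with this pathway was not tested. Sting1 stood at 0.928 (0.817 to 1.05) and Ctcf, outside this list, at 1.07 (0.979 to 1.17). Of 20 chemokine receptor and adhesion genes 3 were higher and 6 lower: Ccr7 stood at 678 and 827 CPM (1.22, 1.17 to 1.27), Ccr8 at 146 and 103 CPM (0.709, 0.640 to 0.786) and Itgb2 at 347 and 279.8 CPM (0.806, 0.756 to 0.859). The heat-shock gene Hspa1b stood at 948 and 626 CPM, a ratio that was 0.643 in S1pr1-zero cells.

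Receptor chains were read from the TCR libraries of the same genotypes. At least 1 alpha and 1 beta chain were assembled for 86.4% of WT (84.1 to 88.4%) and 85.8% of Cgas KO S1pr1-positive barcodes (83.7 to 87.8%), against 90.1% and 87.8% of S1pr1-zero barcodes. No chain was assembled for 6.32% and 5.77% against 3.16% and 3.41%. Barcodes with 2 or more beta chains, which can mark 2 cells in 1 droplet, were 11.6% (9.74 to 13.8%) and 11.1% (9.30 to 13.1%) against 6.18% and 6.56%. S1pr1-positive barcodes thus carried more extra beta chains in both libraries, with intervals that did not overlap. Left out, they took the counts of higher and lower genes to 2077 and 1632, and Klf2 and Itm2a stayed called in the same direction. Barcodes with 2 or more alpha chains were 14.6% and 16.5% against 13.6% and 12.97%. The invariant alpha chain of NKT cells, TRAV11 with TRAJ18, was found in 0 of 1013 WT and 1 of 1109 Cgas KO members, and that of MAIT cells, TRAV1 with TRAJ33, in 0 of each. A count of 0 of 1013 allows a share of up to 0.296% by the floor of 3 counts, and up to 0.363% by the exact 95% interval.

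The repertoire was broad. The 875 paired WT members carried 872 distinct pairs and the 952 paired Cgas KO members 945, and no pair was carried by more than 2 members. The beta CDR3 had a median of 14 residues in all 4 groups. TRBV3, the most used beta segment, was found in 9.70% (WT) and 10.1% (Cgas KO) of members with a beta chain, against 8.97% and 9.78% of S1pr1-zero barcodes. TRBV31 was found in 8.10% and 9.09% against 8.90% and 8.87%; it came next in Cgas KO members, but in WT members TRBV12-2 or TRBV13-2 (8.53%), TRBV5 (8.21%) and TRBV1 (8.21%) came before it.

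**Figure D5:**
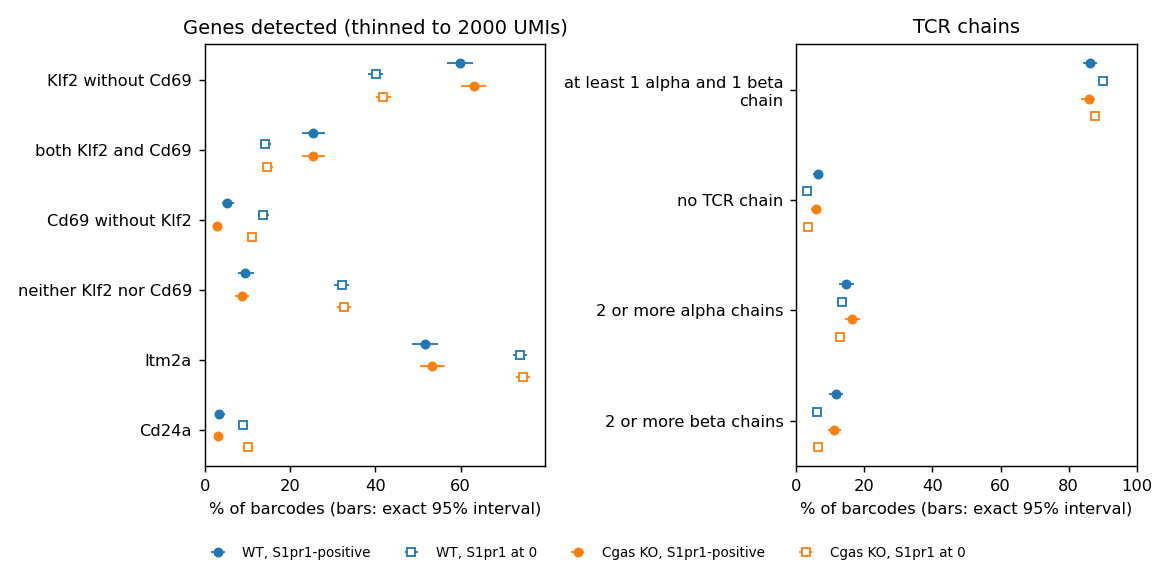
Shares of barcodes with exact 95% intervals, for genes detected after thinning to 2000 UMIs (left) and for assembled TCR chains (right); filled circles are S1pr1-positive, open squares S1pr1-zero, blue WT and orange Cgas KO. Klf2 without Cd69 is at 59.9% and 63.0% against 40.04% and 41.8%, and 2 or more beta chains at 11.6% and 11.1% against 6.18% and 6.56%.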

How the data were processed

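The authors deposited raw UMI counts as unfiltered gene by barcode matrices, written by Cell Ranger 8.0.1 per the file headers. In the notes of the submitters on processing, the tools are Cell Ranger 7.0 and Seurat 5.1.0 and the build is mm10; the difference was not resolved. TCR chains come from the deposited contig lists, with UMI counts per contig.

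There were 84763106 UMIs over 588428 barcodes in WT and 87310091 over 586687 in Cgas KO. Members followed the rule in the text; no doublet caller was run, and 2 or more beta chains served as the check. UMIs were summed per library and state. States were tested with edgeR 4.0.16 (TMM, filterByExpr, quasi-likelihood F test, library block, 8 rule genes left out), checked on simulated counts; DESeq2 was an alternative. Genotypes were compared by CPM only, since there is 1 library each. The members and the 27 gene lists were chosen with earlier results of these data known. Named genes were the 10 highest and 10 lowest folds (at least 200 UMIs between states; 100 UMIs and 20 CPM between genotypes) and list members. Alternatives changed the S1pr1 minimum, depth, filter, scaling, tool, added CPM and barcodes with several or repeated receptors; the last was chosen after seeing the data. Some results are not reported here.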

Additional observations from a re-analysis of the deposited data

How the results depend on the processing

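Between S1pr1-positive and S1pr1-zero barcodes, thinning to 2000 UMIs gave 1417 higher and 1093 lower genes in place of 2369 and 2023. DESeq2's Wald test gave 869 and 422, and with a fold of at least 1.5 it gave 408 and 161 in place of 737 and 582. Without the library block the counts were 1401 and 1034. No paired analysis was possible beyond this block because each genotype has 1 library. The interferon-stimulated list went from 37 to 25 higher of 40 with DESeq2, the semi-mature list from 23 to 16 lower of 30, and the late maturation list from 25 to 24 higher of 30. Other lists also lost calls with DESeq2: TCR signalling counted 9 higher and 6 lower, survival 6 and 2, sialylation 4 and 1, cell cycle 10 and 7, S1P receptors and metabolism 1 and 0, S1P receptor brakes 7 and 2, cytokine receptors 10 and 4, Klf and Foxo regulators 8 and 1, NF-kappaB 5 and 0, and double-positive genes 1 and 1. With DESeq2 migration and cytoskeleton counted 16 higher and 5 lower, chemokine receptors and adhesion 9 and 5, and heat-shock and immediate early genes 4 and 8. GIMAP genes counted 6 and 0, CD8 lineage 1 and 0, Treg 2 and 4, dendritic and myeloid 1 and 0, and B cell 1 and 1. Top2a and Cks2 reversed against depth-matched S1pr1-zero barcodes, to -0.13 and -0.047. Between genotypes, adding 10 CPM gave 15 higher genes in place of 31, an S1pr1 minimum of 3 gave 54 higher and 53 lower, and thinning gave 51 lower in place of 28. S100a4 turned to a log2 ratio of 0.65 without barcodes of 2 or more beta chains, and Ccl5 to 0.13 without those of a repeated receptor; both rest on few UMIs. The ratio of member shares was 1.26 when barcodes were thinned first and between 0.964 and 1.06 under the other settings. The causes were not tested. Leaving out a library would leave no test, so none was run. Genes near a few CPM are limited by depth.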
